A study of Bos taurus with 48 samples.

Results

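The genes described here encode cytochromes P450 and the enzymes that make, interconvert and clear steroids, measured in bovine endometrium 17 days into the reproductive cycle. They were chosen by a rule on names, applied to the gene name or bracketed symbol of each array probe. The rule took numbered CYP genes, HSD3B, HSD11B1, HSD11B2, HSD17B1 to HSD17B6, HSD17B8, HSD17B10 to HSD17B14, SULT, UGT, AKR1C, STS, SRD5A1 and SRD5A2. This gave 61 gene names on 63 probes, of 21475 probes on the array, and 34 of the 63 passed the filter on signal and were tested. Some names share an array entry: CYP4F11 with a CYP4F2 probe, and UGT3A1 with UGT3A2, none of them tested.

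The cows were 22 lactating Holstein-Friesians of mixed New Zealand and North American ancestry with synchronised oestrous cycles. Of these, 12 received a grade 1 blastocyst on day 7 and carried a conceptus at slaughter (pregnant), and 10 received none (cyclic). From each cow a caruncular sample (the aglandular sites where the placenta will attach) and an intercaruncular sample (the glandular tissue between them) were taken, which gave 44 samples. The pregnant cows also carry an embryo size, large in 7 cows and small in 5, and a fertility label, fertile in 6 and sub-fertile in 6, whose basis the labels do not give. Every sample was set in the Cy5 dye against 1 Cy3-labelled pool of all 44 samples, so each value below is a log2 ratio of sample over pool and compares samples for a gene, never 1 gene with another.

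Cytochromes P450 are haem enzymes that insert oxygen into lipids, steroids, retinoids, vitamin D and foreign compounds. Hydroxysteroid dehydrogenases, steroid reductases and aldo-keto reductases switch steroids between active and weak forms, and sulphotransferases and glucuronosyltransferases add groups that make them soluble. In the cow, progesterone from the corpus luteum keeps the uterus receptive, and at this stage of pregnancy the conceptus secretes interferon tau, which blocks the rise of oestrogen and oxytocin receptors that would otherwise start luteolysis.

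The signal filter kept all 3 retinoic acid P450s, both glucocorticoid dehydrogenases (HSD11B1 and HSD11B2), both fatty acid and peroxisomal dehydrogenases (HSD17B4 and HSD17B12) and 7 of 9 sterol, bile acid and vitamin D enzymes. It kept 5 of 7 probes for activation or inactivation of oestrogens, androgens and progesterone, 2 of 4 for steroid hormone synthesis (CYP11A1 and HSD17B1), 4 of 9 for arachidonic and fatty acid P450s, and 3 of 6 sulphotransferases. Fewest remained among drug and xenobiotic P450s, with 5 of 15, and glucuronosyltransferases, with 1 of 6 (UGT1A4). Of the 29 probes not tested, 17 did not reach the signal minimum in any sample, among them CYP7A1, the first enzyme of bile acid synthesis, HSD17B2, which inactivates oestradiol, and both CYP3A4 probes. Bovine names have moved since the array was designed: 17 of the 63 probes carry another RefSeq symbol now, so AKR1C1 is AKR1C4, CYP2D6 is CYP2D14 and CYP2J2 is LOC521656, while the CYP2C18 probe (LOC517472 on the array) was among the 17 that matched no current entry. The other tested probes without a match were those of CYP1A1, CYP1B1, CYP26B1, HSD11B1, HSD17B1, HSD17B12, HSD17B13 and SULT1C2. The array names are kept below.

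Each probe is a designed 60-base oligonucleotide. The probe of CYP4V2, a fatty acid omega-hydroxylase, is printed because its change with pregnancy had the smallest adjusted p of these genes. No base is in capitals, since no part of it is singled out.

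CYP4V2: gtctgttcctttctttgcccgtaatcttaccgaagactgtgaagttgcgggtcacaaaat

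Over the whole array, between 68.8% and 84.0% of spots stood well above background, and all 6 defining endometrial markers did so on all 48 arrays. Of 8 conceptus markers, 7 were above background on at most 4 of 48 arrays, and the exception, PAG1, is a symbol shared with an unrelated gene. Smooth muscle markers (5 tested) were lower in pregnant cows, 4 of 5 in each tissue, and their mean level ran from -1.56 to 0.41 in pregnant against -0.39 to 1.16 in cyclic caruncular tissue. Endothelial markers were lower in 3 of 6 in each tissue, and their mean level ran from -0.68 to 0.20 in pregnant against 0.10 to 0.72 in cyclic intercaruncular tissue and from -0.76 to 0.36 against -0.20 to 0.60 in caruncular tissue. Of 9 stromal markers 3 were lower in pregnant intercaruncular tissue. The part of these cell types in the changes with pregnancy was not tested. Most slides held 1 pregnancy state, and the tissues were mostly scanned in separate batches. In whole tissue, fewer cells of a type and less RNA per cell cannot be told apart.

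CYP2C18 showed the largest change with pregnancy of all 34 tested probes in both tissues. It belongs to a P450 subfamily that oxidises drugs, retinoids and fatty acids. In caruncular tissue the lowest, median and highest log2 ratios were -2.03, 0.10 and 2.90 in the 10 cyclic cows and -4.23, -3.35 and -1.42 in the 12 pregnant cows. The groups overlapped at their edges: 10 of 12 pregnant cows lay below every cyclic cow. The difference was -3.40 (SE 0.57, 95% interval -4.57 to -2.23), 10.6-fold lower in pregnant cows, with an adjusted p of 0.000156 by limma. Only 2 of the 12 pregnant caruncular samples reached the signal minimum, so the size of this fold rests on values near background.

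In intercaruncular tissue CYP2C18 ran from -1.08 through a median of 0.91 to 2.78 in cyclic cows and from -3.25 through -1.72 to -0.50 in pregnant cows. Here 9 of 12 pregnant cows were below every cyclic cow. The difference was -2.49 (SE 0.48, 95% interval -3.49 to -1.48), 5.60-fold lower, with an adjusted p of 0.00112 by limma. All 12 pregnant cows were below the cyclic mean in each tissue.

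Cyclic cows had the wider spread, with an SD of 1.82 against 0.93 in caruncular and 1.53 against 0.86 in intercaruncular tissue. The spread was shared by the tissues of a cow. Cows are named here by letter in order of animal number, A to J cyclic and K to V pregnant. Cyclic cows G, B and E were the lowest 3 in both tissues, at -2.03, -1.74 and -1.48 in caruncular tissue. Cyclic cows A, H and C were the highest 3 in both, at 2.90, 2.46 and 2.35 in caruncular tissue.

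The CYP2C18 probe was well above background on 13 of 13 arrays of cyclic caruncular tissue but on only 6 of 13 of pregnant caruncular tissue, and on every intercaruncular array. The sample channel alone gave 11.7-fold in caruncular and 6.06-fold in intercaruncular tissue. Holding dim samples at each array's floor, its lowest signal called above background, did not change these folds. That floor lay below the CYP2C18 values, so it sets no limit on the fold. On the slides that held both states the difference was -2.12 and -3.68 in caruncular and -1.58 in intercaruncular tissue. Each of those slides held a single cyclic cow. Within scan batches the difference was -3.14 and -3.57 in caruncular and -2.39 and -3.20 in intercaruncular tissue. The -3.20 is cow U against cow H alone, and cow H was among the highest cyclic cows. Slide and batch values were taken over arrays, so repeat arrays entered those of caruncular tissue. With every slide as a fixed block the size was set by 1 slide in each tissue and the adjusted p was 0.661 and 0.669 (limma).

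**Figure D1:**
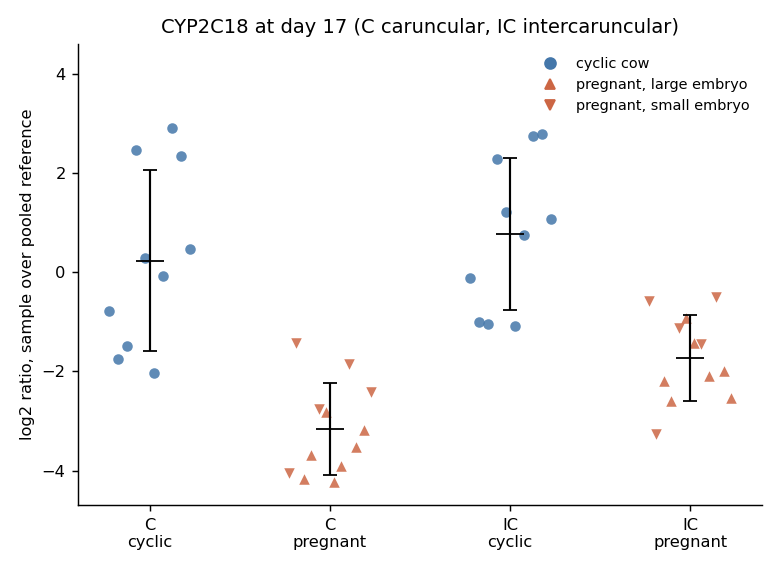
CYP2C18 log2 ratio of sample over pooled reference (vertical axis) in each cow by tissue and state; circles are cyclic cows, upward triangles pregnant cows with a large embryo, downward triangles those with a small one, and bars are mean ± SD. Pregnant cows sit between -4.23 and -1.42 in caruncular tissue (C) and between -3.25 and -0.50 in intercaruncular tissue (IC), below most cyclic cows.

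Across caruncular tissue, of the 34 tested probes 5 were higher and 3 lower in pregnant cows, counting those that differed 1.5-fold or more with an adjusted p under 0.05. Of all 14711 probes tested, 5.78% were called higher and 4.23% lower. The median difference was -0.04 over the 34 and -0.04 over all probes. In intercaruncular tissue 3 were higher and 2 lower, against 4.01% and 3.27% of all probes, with a median of 0.08 over the 34 and -0.01 over all. The 2 tissues came from the same cows.

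The retinoic acid P450s CYP26B1 and CYP26A1 were among the largest rises, the former called in caruncular and the latter in intercaruncular tissue. CYP26C1 was called with pregnancy in neither tissue. CYP26A1, CYP26B1 and CYP26C1 hydroxylate retinoic acid and so end its signal. CYP26B1 in caruncular tissue ran from -2.50 through -1.44 to 1.25 in cyclic cows and from -2.03 through 0.94 to 2.24 in pregnant cows. It rose by 1.80 (SE 0.47), 3.48-fold, with an adjusted p of 0.00745 by limma. Of 12 pregnant cows 11 were above the cyclic mean but only 4 above every cyclic cow, since cyclic cow E stood at 1.25 (the next was -0.66). In intercaruncular tissue the difference was 0.32 (SE 0.37, adjusted p = 0.579 by limma).

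CYP26A1 rose in intercaruncular tissue, from a cyclic range of -3.55 to 0.02 (median -1.58) to a pregnant range of -1.07 to 1.90 (median -0.34). The change was 1.61 (SE 0.40), 3.05-fold, with an adjusted p of 0.00671 by limma, and all 12 pregnant cows were above the cyclic mean. The call was lost with slide as a random block (adjusted p = 0.0617 by limma). In caruncular tissue it differed by 1.27 (SE 0.49), which missed the threshold with an adjusted p of 0.0566 by limma. There the pregnant cows spread from -2.48 to 1.92. Each caruncular slide with both states held a single cyclic cow. There the CYP26A1 difference was 0.04 and -0.54, and that of CYP26B1 was 1.95 and 0.40.

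Among sterol and vitamin D enzymes, CYP39A1 rose in both tissues. It is an oxysterol hydroxylase of bile acid synthesis. In caruncular tissue it ran from -2.09 through -0.27 to 0.61 in cyclic cows and from 0.20 through 0.57 to 1.61 in pregnant cows, and 6 of 12 pregnant cows lay above every cyclic one. The change was 1.15 (SE 0.29), with an adjusted p of 0.00622 by limma. In intercaruncular tissue it ran from -2.52 through -1.59 to -0.57 in cyclic and from -1.32 through -0.17 to 2.06 in pregnant cows, 8 of which were above every cyclic cow. That change was 1.37 (SE 0.32), 2.58-fold, with an adjusted p of 0.00456 by limma.

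CYP2R1, which hydroxylates vitamin D in its activation, fell by 0.63 in intercaruncular tissue (SE 0.14, adjusted p = 0.00367 by limma). The reading of the pool itself moved with it: the Cy3 signal of the CYP2R1 spots, which is the same RNA on every array, was lower by 1.32 on arrays of pregnant intercaruncular tissue. Its log2 level, relative to each array's median, had medians of 3.37 on cyclic and 2.00 on pregnant intercaruncular arrays, while caruncular arrays lay between 0.53 and 1.92. Its part in the result was not tested. Over all tested probes, 5.9% had a pool difference above 0.5 in that comparison. Across 12 alternatives the CYP2R1 change there ran from -1.94 to -0.57, and the call was lost in 2. CYP24A1, which breaks down vitamin D, differed by 0.79 in caruncular (adjusted p = 0.134) and 0.78 in intercaruncular tissue (adjusted p = 0.0774, both by limma). CYP27A1, a mitochondrial sterol hydroxylase of bile acid synthesis, differed by -0.53 in caruncular tissue (adjusted p = 0.007 by limma), which is under 1.5-fold. Its pool difference there was 0.22, a part that was not tested.

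Of the enzymes that act on sex steroids, SRD5A1 rose in both tissues and AKR1C1 and HSD17B6 fell in caruncular tissue. SRD5A1 is a steroid 5-alpha-reductase, which reduces testosterone and progesterone. In caruncular tissue it ran from -1.22 through -0.80 to 0.00 in cyclic cows and from -0.83 through 0.26 to 1.29 in pregnant cows. Of the latter, 10 of 12 exceeded the whole cyclic group. The rise was 1.02 (SE 0.21), 2.03-fold, with an adjusted p of 0.000996 by limma. In intercaruncular tissue it ran from -1.40 through -0.77 to -0.19 in cyclic and from -0.82 through 0.26 to 1.14 in pregnant cows. That rise was 0.95 (SE 0.23), with an adjusted p of 0.00563 by limma.

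AKR1C1, an aldo-keto reductase of the subfamily that reduces ketosteroids, fell in caruncular tissue by 0.96 (SE 0.30, adjusted p = 0.0194 by limma). Its values ran from -1.65 through -0.89 to 0.89 in cyclic and from -2.82 through -1.36 to -0.53 in pregnant cows, a wide overlap. HSD17B6, which oxidises 3-alpha-androstanediol back towards dihydrotestosterone, fell by 1.12 in the same tissue (SE 0.37, adjusted p = 0.0281 by limma). Its cyclic cows ran from -1.60 through -0.39 to 1.5 and its pregnant cows from -2.60 through -1.79 to 0.21. Both calls were lost with slide as a random block, with adjusted p of 0.0941 and 0.183 (limma). On caruncular slide 7, with 3 pregnant cows and 1 cyclic cow, the HSD17B6 difference was 0.48. On slide 10, also with 1 cyclic cow, it was -1.57. In intercaruncular tissue AKR1C1 differed by -0.32 (adjusted p = 0.347) and HSD17B6 by -0.08 (adjusted p = 0.853, both by limma). KRT7, an epithelial keratin, also differed by -2.07 in pregnant caruncles, though of the 8 tested epithelial markers 2 were higher and 2 lower, and their mean level ran from -1.33 to 0.003 in pregnant against -1.26 to 0.08 in cyclic caruncles. The part of cell makeup in these falls was not tested.

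**Figure D2:**
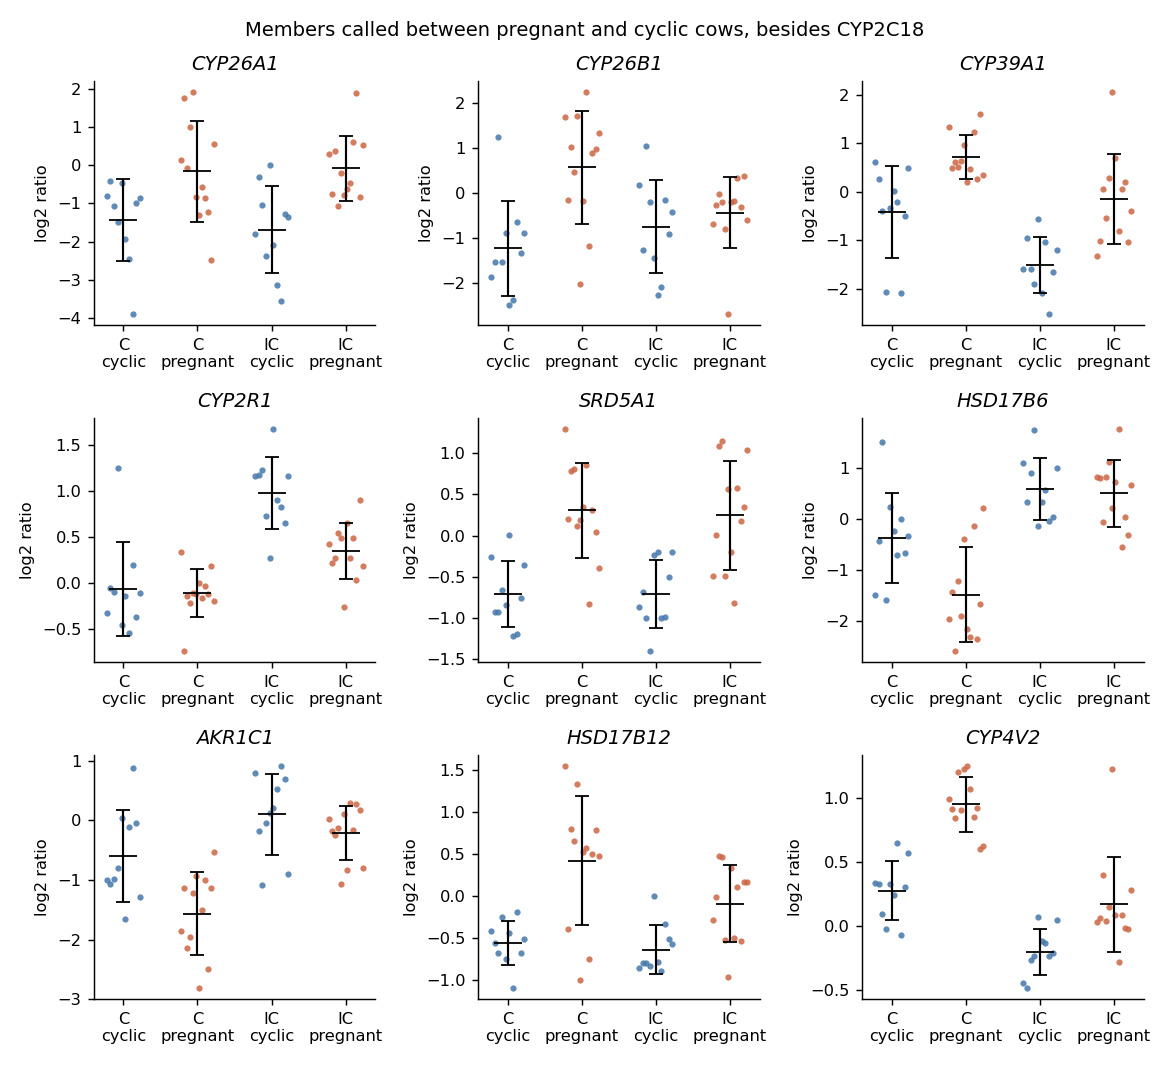
Log2 ratio of sample over pooled reference (vertical axes) for the other enzymes called between pregnant and cyclic cows, in caruncular (C) and intercaruncular (IC) tissue; each point is 1 cow, blue cyclic and orange pregnant, and bars are mean ± SD. CYP39A1 and SRD5A1 sit higher in pregnant cows in both tissues, while CYP4V2 and HSD17B12 separate most in C.

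Among fatty acid enzymes, CYP4V2 rose in caruncular tissue from -0.07, 0.31 and 0.65 (lowest, median and highest cyclic cow) to 0.60, 0.92 and 1.24 in pregnant cows. The rise of 0.67 (SE 0.09) was small beside that of other genes but well separated: 10 of 12 pregnant cows lay above every cyclic cow, and the adjusted p was 2.11e-05 by limma. In intercaruncular tissue it differed by 0.37 (adjusted p = 0.0414 by limma), under 1.5-fold. HSD17B12, a ketoacyl-CoA reductase of very long chain fatty acid synthesis, rose by 0.98 in caruncular tissue (SE 0.24, adjusted p = 0.00507 by limma), with 9 of 12 pregnant cows above every cyclic cow and 2 below the cyclic mean. Its pool signal differed by -0.33 in that comparison, a part that was not tested. The intercaruncular difference was 0.55 (adjusted p = 0.0197 by limma), under 1.5-fold. CYP4A11, an omega-hydroxylase, differed by -0.35 in intercaruncular tissue (adjusted p = 0.015 by limma), under 1.5-fold. Its pool difference there was -0.79, a part that was not tested.

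Other enzymes were not called with pregnancy in either tissue. CYP1A1, an aryl hydrocarbon hydroxylase, differed by 0.83 in intercaruncular tissue (95% interval 0.09 to 1.56, adjusted p = 0.101) and by -0.49 in caruncular tissue (adjusted p = 0.326, both by limma). CYP11A1, which cleaves the cholesterol side chain to start steroid synthesis, differed by -0.24 and 0.37 in caruncular and intercaruncular tissue, with adjusted p of 0.628 and 0.22 (limma). HSD17B13, a lipid droplet protein, differed by -0.85 in caruncular tissue (95% interval -1.90 to 0.20, adjusted p = 0.219 by limma).

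**Figure D3:**
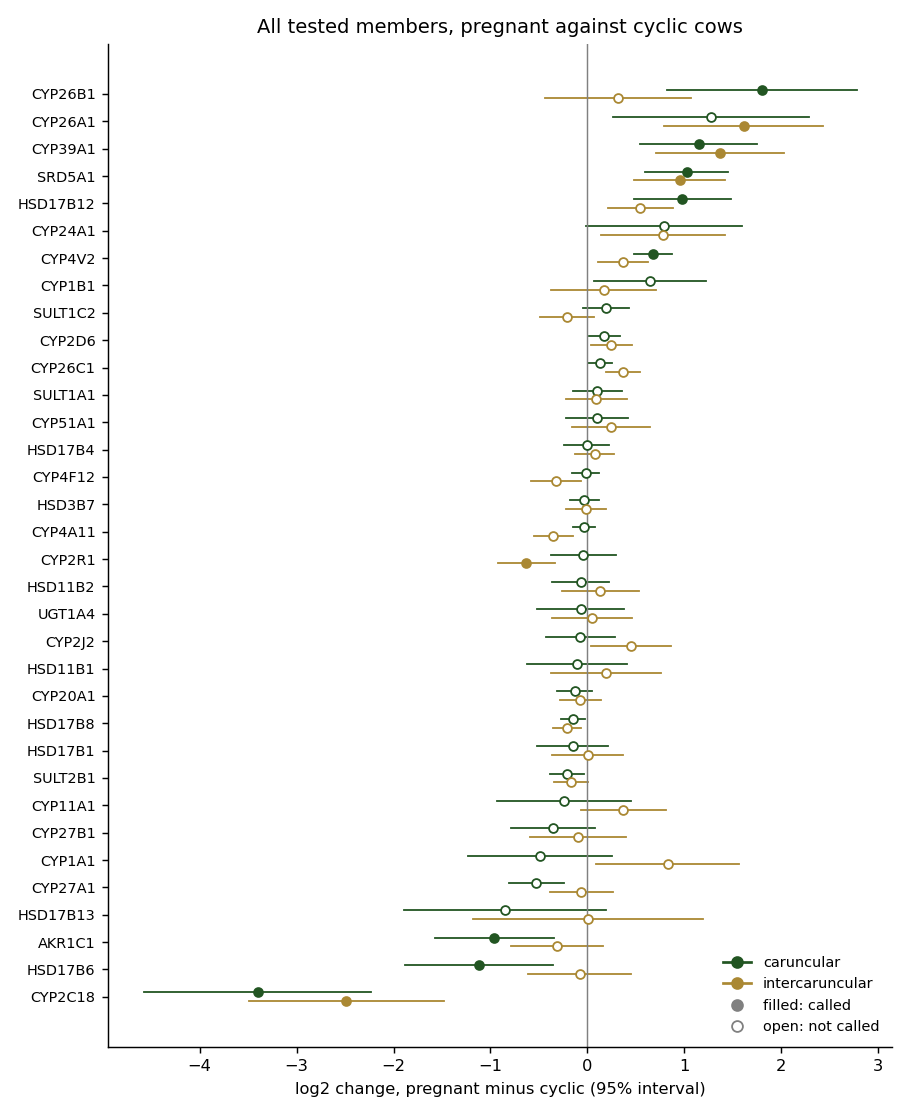
Log2 change of pregnant minus cyclic cows (horizontal axis) with its 95% interval for all 34 tested enzymes, in caruncular (green) and intercaruncular (brown) tissue; filled points passed both thresholds (1.5-fold and adjusted p under 0.05) and open ones did not. CYP2C18 lies alone at -3.40 and -2.49, and most other enzymes have intervals near or across 0.

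The genes that supply and answer these enzymes are counted here by the same thresholds, where all probes gave 5.78% higher and 4.23% lower (caruncular) and 4.01% higher and 3.27% lower (intercaruncular). Of 17 tested genes of retinoid supply and response, 0 were higher and 3 lower in caruncular tissue: the retinoic acid binding proteins CRABP1 (-0.93) and CRABP2 (-0.78) and the retinol carrier RBP4 (-0.82). None of the 17 was called in intercaruncular tissue, where the median was -0.37. Of 24 cholesterol synthesis genes, 1 was called in caruncular tissue (PMVK, phosphomevalonate kinase, 0.72) and none in intercaruncular tissue. Of 12 partners of steroid synthesis, 1 was lower in each tissue: CYB5R3, cytochrome b5 reductase, in caruncular (-0.60) and SCARB1, the receptor for high-density lipoprotein, in intercaruncular tissue (-0.60).

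PAPSS2, which makes the sulphate donor of the sulphotransferases, was the 1 caruncular call of 12 genes of sulphate and glucuronide handling (0.90, adjusted p = 0.00323 by limma), and SULF1, a heparan sulphatase, fell in intercaruncular tissue (-0.80). Of 7 genes of vitamin D and bile acid control, the endocytic receptor CUBN was higher (1.28) and the vitamin D binding protein GC lower (-1.38) in caruncular tissue, and none was called in intercaruncular tissue. Of 14 genes of arachidonic acid and prostaglandins, CBR1, a carbonyl reductase, was higher in both tissues (0.80 and 0.78). EPHX2, the soluble epoxide hydrolase, was higher (0.73) and AKR1B1, a prostaglandin F synthase, lower (-0.74) in caruncular tissue, and PTGES, a prostaglandin E synthase, was lower in intercaruncular tissue (-0.91). Of 12 xenobiotic sensing genes only PPARG, a fatty acid receptor, was called, lower by 0.89 in intercaruncular tissue.

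Within cows, the tissues differed in 7 of the 34 enzymes in cyclic and 12 in pregnant cows. In cyclic cows 2 were higher and 5 lower in caruncular tissue, against 7.52% and 5.71% of all probes. In pregnant cows 4 were higher and 8 lower, against 9.43% and 8.26%. The median difference was -0.15 and -0.20 over the 34, and -0.02 over all probes in both states. Marker lists differed between the tissues too: 5 of 9 stromal markers in cyclic and 7 of 9 in pregnant cows were higher in caruncular tissue, and 3 and 5 of 5 ciliated-cell markers were lower. Of 8 luminal and glandular epithelial markers, 2 were lower and 0 higher in caruncular tissue of cyclic cows. In pregnant cows 5 of the 8 were lower and 1 higher. The mean level of the ciliated list ran from -3.14 to -0.29 in pregnant caruncular and from -1.10 to 0.58 in pregnant intercaruncular samples, and the part of cell makeup in the tissue differences was not tested. Tissue and scan batch were separate in 2 cows only, cyclic cow H and pregnant cow U, whose tissues shared a slide.

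HSD17B6 differed most in pregnant cows, by -1.99 (SE 0.20, adjusted p = 4.1e-06 by limma), with within-cow values from -3.42 to -0.60, all 12 below 0. In cyclic cows it was -0.96 (adjusted p = 0.0344 by limma), with 7 of 10 below 0. AKR1C1 was lower in caruncular tissue by 1.35 in pregnant and 0.71 in cyclic cows (adjusted p = 8.84e-05 and 0.00879 by limma). CYP2J2, an arachidonic acid epoxygenase, was lower in all 12 pregnant and all 10 cyclic cows, with means of -1.40 and -0.88 (adjusted p = 1.12e-05 and 0.000562 by limma). The shared-slide cows gave -0.23 and -0.47 for it, the same direction.

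The SULT1C2 probe (LOC509792 on the array), for a phenol sulphotransferase, matched no current entry, while the gene now called SULT1C2 is the array's SULT1C1, which passed in 0 of 44 samples. The former was lower in caruncular tissue in all 10 cyclic cows, by 0.40 to 1.37 (mean -0.96, adjusted p = 0.000109 by limma). In pregnant cows its mean was -0.56, under 1.5-fold. CYP1B1, which hydroxylates oestradiol, was higher in caruncular tissue in 9 of 10 cyclic and 12 of 12 pregnant cows. Its means were 0.59 and 1.06 (adjusted p = 0.00447 and 6.49e-06 by limma), and the shared-slide cows gave 0.80 and 0.80. The call in cyclic cows was lost with the sample channel alone (adjusted p = 0.277) and with no replicate block (adjusted p = 0.111, both by limma). Its pool signal differed by -0.46 in the pregnant comparison, a part that was not tested. On cyclic intercaruncular arrays that signal ran from 0.19 to 6.21 with a median of 5.87, and its cyclic caruncular readings were incomplete. Their part in the cyclic call was not tested. CYP39A1 was higher by 1.09 in cyclic and 0.87 in pregnant cows (adjusted p = 0.00161 and 0.00434 by limma), but the shared-slide cows gave -0.16 and -1.09. Its pool signal differed by -0.32 in the pregnant comparison, a part that was not tested.

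Called in pregnant cows alone were CYP1A1, HSD17B13, CYP2C18, CYP11A1 and CYP27A1, all lower in caruncular tissue, and CYP26B1 and CYP4V2, both higher. CYP1A1 was lower by 1.81 (SE 0.29, adjusted p = 0.000105 by limma) in 11 of 12 cows, the 12th being cow U at 0.055. HSD17B13 was lower by 1.64 and CYP27A1 by 0.92, each in 12 of 12 cows (adjusted p = 3.88e-05 and 3.09e-05 by limma), with cow U at -1.29 and -0.21. CYP11A1 was lower by 0.94 in 10 of 12 cows, with cow U at -0.07, and CYP4V2 higher by 0.78 in 11 of 12, with cow U at -0.00016. For CYP11A1 only 4 of the 12 pregnant caruncular samples reached the signal minimum, though 11 of 13 arrays stood well above background. CYP4V2 was also higher in all 10 cyclic cows, by 0.47, under 1.5-fold. A call in 1 state alone does not show that the states differ: that difference passed its own test (the change with pregnancy set against tissue, below 0.05 after adjustment) for CYP2C18 and CYP26B1 only, with adjusted p of 0.28 for HSD17B13, 0.387 for CYP11A1, 0.161 for CYP27A1 and 0.153 for CYP4V2 (limma).

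CYP2R1 was lower in caruncular tissue of cyclic cows by 1.05 (SE 0.18, adjusted p = 0.000811 by limma). Its pool signal was lower by 2.11 in the same comparison, and cow H, with both tissues on 1 slide, was the single cow above 0, at 0.52. The pool's part in the result was not tested.

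**Figure D4:**
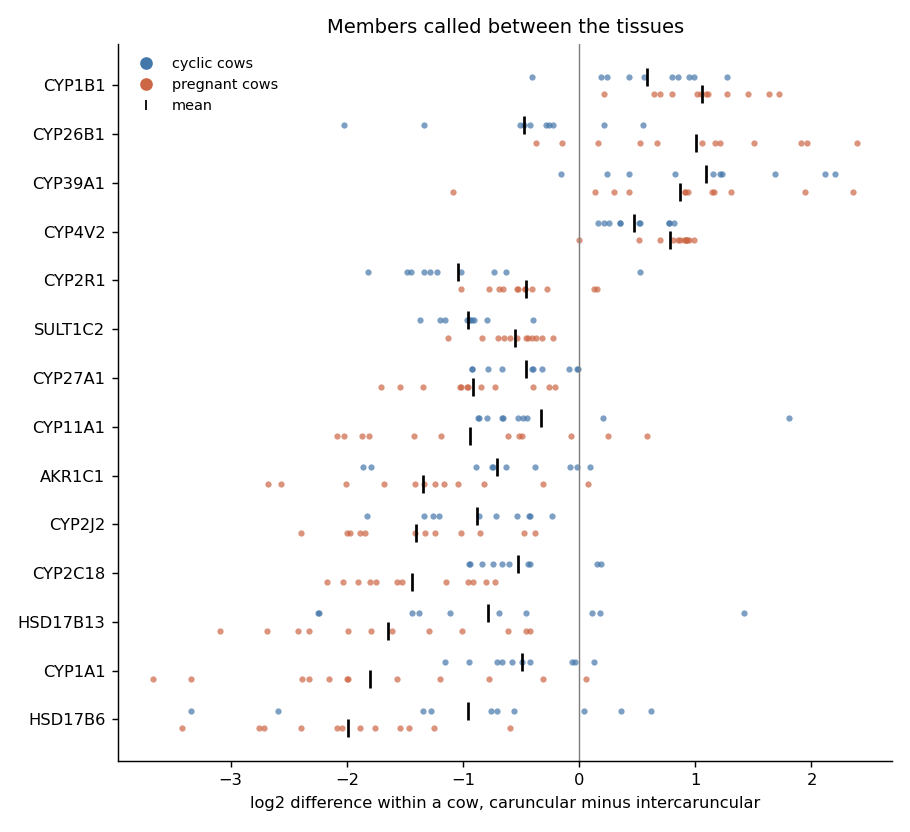
Within-cow log2 difference, caruncular minus intercaruncular (horizontal axis), for each enzyme called between the tissues; each point is 1 cow, blue cyclic and orange pregnant, and black ticks are means. Points of CYP2J2 and SULT1C2 all lie below 0, and those of HSD17B6 in pregnant cows reach -3.42.

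The change with pregnancy differed between the tissues of a cow for 2 of the 34 enzymes (adjusted p under 0.05), against 1.03% of all probes. For CYP26B1 the caruncular minus intercaruncular difference averaged -0.48 in cyclic cows (-2.03 to 0.55) and 1.00 in pregnant cows (-0.37 to 2.39). The shift between states was 1.48 (SE 0.32, adjusted p = 0.0309 by limma), and 8 of 12 pregnant cows lay above every cyclic cow. For CYP2C18 it averaged -0.53 in cyclic (-0.95 to 0.19) and -1.44 in pregnant cows (-2.18 to -0.73). That shift was -0.92 (SE 0.19, adjusted p = 0.0245 by limma), with 9 of 12 pregnant cows below every cyclic cow. With normexp background correction and loess it was -0.39 (adjusted p = 0.155 by limma), and pregnant caruncular CYP2C18 was at background on many arrays. CYP1A1, at -1.31, missed the threshold (adjusted p = 0.0609 by limma).

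By embryo size, no probe of the array was called in caruncular tissue by limma (0%, with 1018 at an unadjusted p under 0.05), while in intercaruncular tissue 3.7% of all probes were called and 2 of the 34 enzymes were, both higher with a large embryo. SRD5A1 ran from -0.82 through -0.49 to 0.18 in the 5 cows with a small embryo and from -0.20 through 0.58 to 1.14 in the 7 with a large one, 6 of which lay above every small-embryo cow. The difference was 0.97 (SE 0.24, 95% interval 0.44 to 1.5, adjusted p = 0.0479 by limma). CYP2D6, a drug oxidase, ran from -0.18 through -0.09 to 0.30 and from 0.27 through 0.32 to 0.56, a difference of 0.40 (SE 0.10, adjusted p = 0.0445 by limma). Neither held in most fits that left out 1 cow: SRD5A1 passed in 3 of 12 and CYP2D6 in 2 of 12, with adjusted p up to 0.128 and 0.126 (limma).

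CYP24A1 differed by 1.10 (95% interval 0.35 to 1.84, adjusted p = 0.0948) and HSD11B1, which regenerates active glucocorticoid, by 0.93 (95% interval 0.30 to 1.56, adjusted p = 0.0959) in intercaruncular tissue. CYP27A1 was at -0.62 there (adjusted p = 0.0517, all by limma). CYP2C18 in caruncular tissue ran from -4.05 through -2.41 to -1.42 with a small embryo and from -4.23 through -3.69 to -2.82 with a large one. That difference of -1.15 (95% interval -2.01 to -0.29) had an adjusted p of 0.67 and lies among samples of which 2 of 12 reached the signal minimum, and in intercaruncular tissue it was -0.59 (95% interval -1.56 to 0.38, adjusted p = 0.476, both by limma). CYP26A1 in caruncular tissue was at -1.49 (95% interval -2.76 to -0.21, adjusted p = 0.685 by limma).

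**Figure D5:**
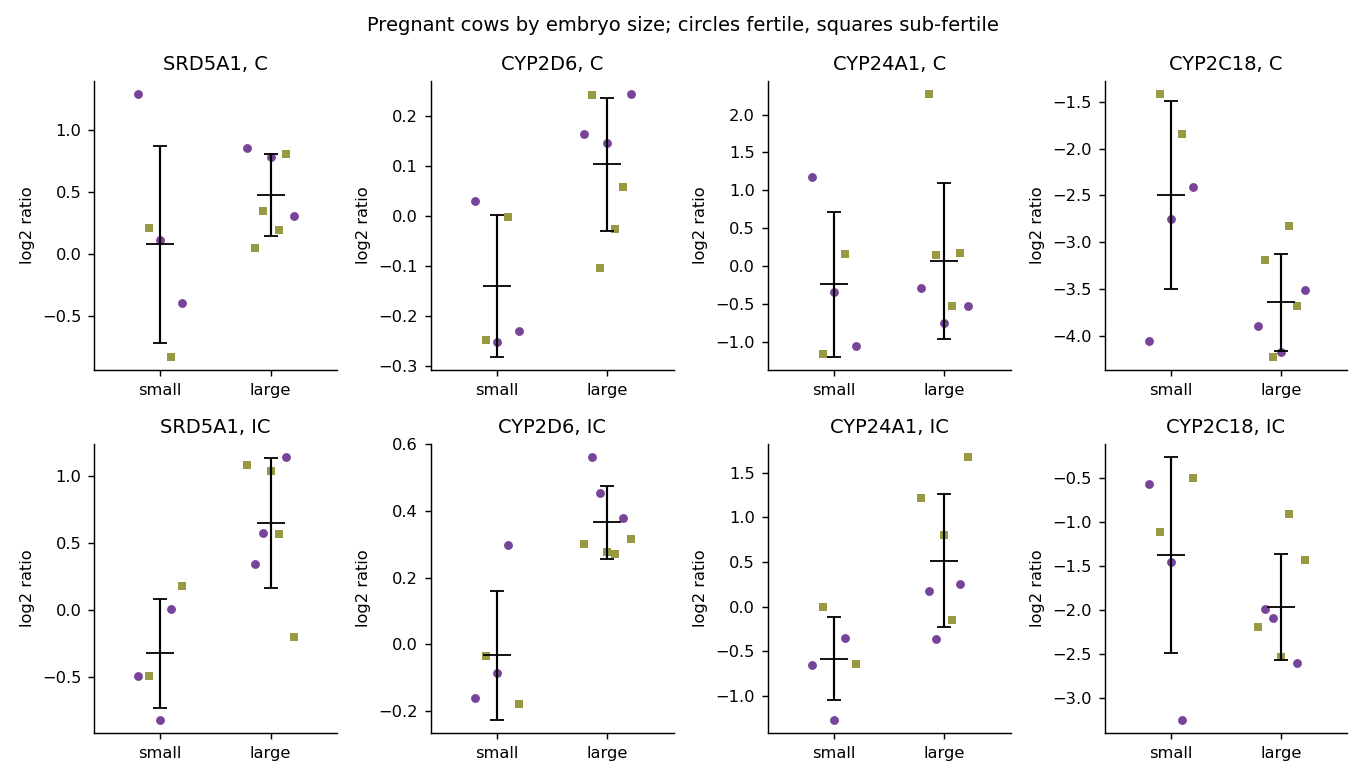
Log2 ratio of sample over pooled reference (vertical axes) in pregnant cows with a small or a large embryo, for SRD5A1, CYP2D6, CYP24A1 and CYP2C18 in caruncular (C, top) and intercaruncular (IC, bottom) tissue; circles are fertile cows, squares sub-fertile cows, and bars are mean ± SD. In IC, 6 of 7 large-embryo cows lie above every small-embryo cow for SRD5A1.

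By fertility label none of the 34 enzymes was called. Over all probes 0% were called in caruncular and 0.0476% in intercaruncular tissue, while 4 and 7 of the 34 had an unadjusted p under 0.05 by limma (2025 and 2001 of all probes). The largest difference was in HSD17B13 in intercaruncular tissue, where fertile cows ran from -0.75 through -0.27 to 0.80 and sub-fertile cows from -4.45 through -1.70 to -1.16, with no overlap. It was 1.90 (SE 0.51, 95% interval 0.80 to 2.99), with an adjusted p of 0.175 by limma. CYP26B1 in caruncular tissue ran from 0.90 through 1.51 to 2.24 in fertile and from -2.03 through -0.16 to 0.98 in sub-fertile cows, a difference of 1.83 (SE 0.44, adjusted p = 0.261 by limma). CYP39A1 in intercaruncular tissue was at -1.26 (95% interval -2.04 to -0.48, adjusted p = 0.195), and CYP2C18 at -0.60 in caruncular (95% interval -1.64 to 0.43, adjusted p = 0.584) and -0.54 in intercaruncular tissue (95% interval -1.5 to 0.42, adjusted p = 0.604, all by limma).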

How the data were processed

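Total RNA was amplified, labelled and hybridised to Agilent 60-base oligonucleotide arrays, 48 in all: 44 samples and 4 caruncular samples hybridised again, whose repeats were averaged. Per the file headers, the authors used Feature Extraction 9.5.3.1 to subtract background and apply LOWESS dye normalisation, and the deposited spot value is the log10 ratio of Cy5 sample over Cy3 pool, beside intensity columns for each channel. The deposited value table holds log2 ratios for 48 columns, used as an alternative: it correlated with the scanner ratios at 0.982 or more, with column medians from -0.0284 to 0.059. The dyes were stated and not swapped, and direction was kept although 1 pair of arrays correlated at -0.41 over all probes.

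Ratios were converted to log2, outlier spots removed, the 2 spots of a probe averaged and each array's median subtracted. Probes well above background with a processed Cy5 signal of at least 80 in at least 22 of 44 samples were kept (14711 of 21475). limma 3.58.1 in R 4.3.3 gave moderated tests with Benjamini-Hochberg adjustment over all 14711. Pregnancy and tissue calls needed 1.5-fold and an adjusted p under 0.05, the others the adjusted p alone. Tissue comparisons used within-cow differences, pairing by animal: deviations of the tissues of a cow correlated at 0.109 to 0.869 (median 0.613), above 0.1 in all 22 cows. Repeat arrays differed with an SD of 0.102 to 0.148, different cows with at least 0.361, so none was counted as a duplicate. p-values measure the spread between cows. The number of cows limits the precision. The pipeline was tested on simulated data.

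Members and gene lists were chosen with earlier results of these data known. Values are given for CYP2C18, each called enzyme, the 5 largest changes of each pregnancy and tissue comparison, and up to 3 genes of each pathway list, read from the brightest probe that passed. CYP27A1, CYP4A11 and the embryo and fertility values that were not called were chosen after their values were seen. RefSeq names (assembly ARS-UCD2.0) came by accession for 17 probes and gene number for 29; no coordinates are given. The probe sequence came from the study's supplementary list. Alternatives covered background correction, centring, filters, the value table, repeat arrays, the methods' t-test, slide and scan blocks, covariates and leaving out cows.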

Additional observations from a re-analysis of the deposited data

Results flagged for a closer look

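In cyclic caruncular tissue 1 cow stood apart for CYP26B1: cow E was at 1.245 and the next highest cow at -0.656, a gap of 0.508 of the group's range. For the within-cow tissue difference of CYP2R1 in cyclic cows, cow H was at 0.521 and the next highest at -0.63, a gap of 0.492 of the range. That cow had both tissues on 1 slide. These were 2 of 34 groups examined, and chance alone marks about 1 in 20.

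The pregnancy change differed between the tissues of a cow for CYP26B1 (1.48, adjusted p = 0.0309 by limma) and CYP2C18 (-0.92, adjusted p = 0.0245 by limma).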

How the results depend on the processing

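The fall of CYP2C18 kept its direction in every alternative run, from -3.65 to -2.12 in caruncular and from -2.69 to -1.58 in intercaruncular tissue. Leaving out 1 cow at a time gave -3.65 to -3.11 and -2.69 to -2.26, all called. It missed the threshold with slide as a fixed block: -2.12 (adjusted p = 0.661) and -1.58 (adjusted p = 0.669, limma), where 0 enzymes were called in either tissue. By that fit's construction 1 slide in each tissue informs it, with 3 pregnant cows and 1 cyclic cow, since repeated samples carry the slide of their first array. There HSD17B6 in caruncular tissue turned to 0.48, which rests on that 1 cyclic cow. With slide as a random block CYP26A1 in intercaruncular tissue was lost (adjusted p = 0.0617 by limma), and with all 44 samples in 1 fit CYP26A1 in caruncular tissue was called (adjusted p = 0.0237 by limma).

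With the sample channel alone, an alternative chosen after seeing the data, 8 enzymes in place of 5 were called with pregnancy in intercaruncular tissue, 4 in place of 0 by fertility in intercaruncular tissue, 0 in place of 2 by embryo size and 0 in place of 2 between tissue responses. It lost HSD17B6 and CYP1B1 between tissues of cyclic cows (adjusted p = 0.131 and 0.277 by limma) and took CYP39A1 in pregnant cows under 1.5-fold (0.54). The last count was 1 with normexp and loess (CYP26B1) and 1 with the stricter filter on signal, which dropped the CYP2C18 and CYP11A1 probes. Within-cow fits used the cow as a replicate block. With no replicate block that count was 0 (adjusted p = 0.917 for CYP2C18 and 0.553 for CYP26B1 by limma), CYP1B1 between tissues of cyclic cows was lost (adjusted p = 0.111 by limma), and no other named tissue call changed. The shared-slide cows reversed CYP2R1 (0.52) and CYP39A1 (-0.16) in cyclic and CYP1A1 (0.055), CYP39A1 (-1.09) and CYP4V2 (-0.00016) in pregnant cows.

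The embryo-size calls in intercaruncular tissue (2 enzymes) were the least stable: 0 with no filter on signal, 0 with the methods' t-test at unequal and 1 at equal variances, 5 with slide as a fixed block, and 0 to 11 when 1 cow was left out. The 11 came without cow U. It was 0 without cow N, P, Q, S, T, L or V and 1 without cow O, K or M. HSD17B6 between tissues of cyclic cows was lost without the filter (adjusted p = 0.0601 by limma). No centring, the deposited value table, either repeat array alone and scan date as a block changed no named call and moved no count by over 1.5 times. The causes were not tested. No gene had more than 1 probe passing, so a mean over probes gave no value.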
